A study of Homo sapiens with 6 samples.

Results

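The epidermal growth factor (EGF) family ligands were followed in 3 RNA-seq libraries of ENL-treated and 3 of control BT549 cells, an established line from a human breast carcinoma. Its labels give the treatment only as ENL, and no dose, time or vehicle is given, so ENL is a group name here. The rule took the genes with the symbols HBEGF, AREG, EREG, TGFA, BTC, EGF, EPGN, NRG1 and NRG2, and all 9 were among the 19923 genes of the deposited table. Of these, 7 had a value above 0 in any library and 5 (HBEGF, AREG, EREG, EPGN and NRG1) had enough counts to be tested.

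EGF family ligands are made as membrane-anchored precursors and are released by metalloproteases of the ADAM group, after which they bind receptors of the ERBB family on the same or a neighbouring cell. HBEGF, AREG, EREG, TGFA, BTC, EGF and EPGN bind EGFR, and some of them also bind ERBB4, whereas the neuregulins bind ERBB3 and ERBB4. In breast cancer cells these ligands are known for autocrine growth signalling, and several of their genes are themselves induced downstream of the receptors.

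The cells were checked against marker genes. The 5 mesenchymal markers summed to 5975 to 6884 normalised counts (CPM, scaled to the effective library size) in ENL libraries and 3208 to 3923 CPM in control libraries, most of it VIM. Of these VIM, FN1 and CDH2 rose, SPARC fell (log2 fold change -1.83 ± 0.07) and ZEB1 did not pass the test. The labels give the tissue as epithelium of the mammary gland. Of the 5 epithelial markers CDH1 and EPCAM did not exceed 0.358 and 0.249 CPM in any library and KRT19 stayed near 1 CPM or below. KRT8 was present at 33.2 to 40.5 CPM in ENL and 13.2 to 18.0 CPM in control libraries (called higher), and KRT18 at 21.7 to 27.4 CPM in ENL and 23.1 to 31.3 CPM in control libraries. Of the luminal markers GATA3 was present (22.6 to 38.6 CPM over the 6 libraries), ESR1 was below 1 CPM and PGR was at 0. Of the leukocyte markers CD68 was at 54.0 to 68.3 CPM and CD14 fell (log2 fold change -2.51 ± 0.26). PTPRC and CD3E did not exceed 1.20 and 0.0734 CPM. Of the endothelial markers VWF was at 5.45 to 8.54 CPM, PECAM1 did not exceed 0.383 CPM and CDH5 was at 0. The fibroblast markers PDGFRB, DCN and LUM did not exceed 1.18, 1.10 and 0.950 CPM, and PDGFRB was called lower. The part of these differences in the ligand values was not tested. Library totals were 74457932 to 85310759 units, where 1 sequenced fragment was taken as about 4 units. On the second principal component ENL library 3 scored 55.8, whereas ENL libraries 1 and 2 scored -22.0 and -26.3. Whether the replicates are separate cultures is not stated, and p-values therefore reflect only how much these libraries vary, which may be technical.

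The upstream sequences of 4 ligand genes are shown because these are the EGFR ligands that had enough counts to be tested, EPGN only barely, and because AREG, EREG and EPGN lie side by side on chromosome 4. Each is the stretch of 250 bases before the annotated start (RefSeq, GRCh38.p14), read 5′ to 3′ on the gene's strand, at chr5:140346604-140346853 (minus strand) for HBEGF, chr4:74444886-74445135 (plus) for AREG, chr4:74364895-74365144 (plus) for EREG and chr4:74308220-74308469 (plus) for EPGN. Capitals mark matches to the motifs described next.
HBEGF: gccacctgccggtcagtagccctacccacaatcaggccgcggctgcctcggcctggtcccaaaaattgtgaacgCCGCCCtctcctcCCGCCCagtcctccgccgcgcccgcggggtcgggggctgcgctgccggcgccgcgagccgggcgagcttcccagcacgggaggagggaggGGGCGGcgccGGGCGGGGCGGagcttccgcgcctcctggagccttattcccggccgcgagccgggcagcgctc
AREG: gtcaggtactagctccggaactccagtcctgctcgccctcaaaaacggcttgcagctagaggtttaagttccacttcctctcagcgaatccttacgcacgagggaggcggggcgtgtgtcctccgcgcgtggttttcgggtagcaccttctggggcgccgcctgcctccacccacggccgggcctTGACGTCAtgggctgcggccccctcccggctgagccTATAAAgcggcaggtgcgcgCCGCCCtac
EREG: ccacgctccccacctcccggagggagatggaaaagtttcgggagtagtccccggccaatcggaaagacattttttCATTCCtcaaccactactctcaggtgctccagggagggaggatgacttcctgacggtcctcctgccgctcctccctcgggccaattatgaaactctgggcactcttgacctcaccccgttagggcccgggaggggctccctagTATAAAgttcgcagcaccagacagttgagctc
EPGN: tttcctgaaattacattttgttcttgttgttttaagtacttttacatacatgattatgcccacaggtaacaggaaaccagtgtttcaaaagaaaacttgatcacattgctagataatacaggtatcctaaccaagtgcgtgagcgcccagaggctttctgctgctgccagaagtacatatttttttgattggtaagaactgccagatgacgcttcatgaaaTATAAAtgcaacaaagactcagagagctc

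Matches were searched on both strands in the promoters of the 8 members with an entry in the table (all but NRG1). TGFA and NRG2 have 2 entries each, and a member counted if any entry matched, whereas shares of all promoters are per entry. The TATA box letters TATAAA were found in 3 of the 8, AREG, EREG and EPGN, where the match began 29, 32 and 29 bases before the start, against 10.7% of all 35116 promoters of that length. In AREG the cyclic AMP response element TGACGTCA began 65 bases before the start, and 1.65% of all promoters held this motif. HBEGF had no TATAAA but 5 matches to the GC box GGGCGG, of which the last pair share a base, and GC boxes were found in 4 of the 8 members (AREG, HBEGF, NRG2 and TGFA) and 42.6% of all promoters. EREG held 1 match to the TEAD motif CATTCC (2 of 8 members, 11.9% of all promoters). The AP-1 motif TGANTCA and the antioxidant response element TGACNNNGC matched only EGF among the 8, at overlapping positions that also overlap its CATTCC (6.57% and 10.9% of all promoters), and the E-box CACGTG matched 0 of 8 (6.34%). These are matches of letters, and factor binding was not measured.

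The ligands did not pass the test for a difference between ENL and control cells. By edgeR's quasi-likelihood F test, adjusted over all 14086 tested genes after Benjamini and Hochberg, 0 of the 5 tested ligands reached an adjusted p below 0.05, and 0 had an unadjusted p below 0.05. Of all tested genes 38.4% were called, 18.4% as lower in ENL and the rest as higher. The DESeq2 Wald test and limma-voom also called 0 of the 5, with 1 ligand (EREG) at an unadjusted p below 0.05 in each. The values of the groups did not overlap for 1 of the 5 ligands (EREG), against 54.0% of all tested genes. The median log2 fold change was -0.28 over the 5 ligands and -0.02 over all tested genes. In a bulk measurement like this, fewer cells of a type and less RNA per cell cannot be told apart.

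**Figure D1:**
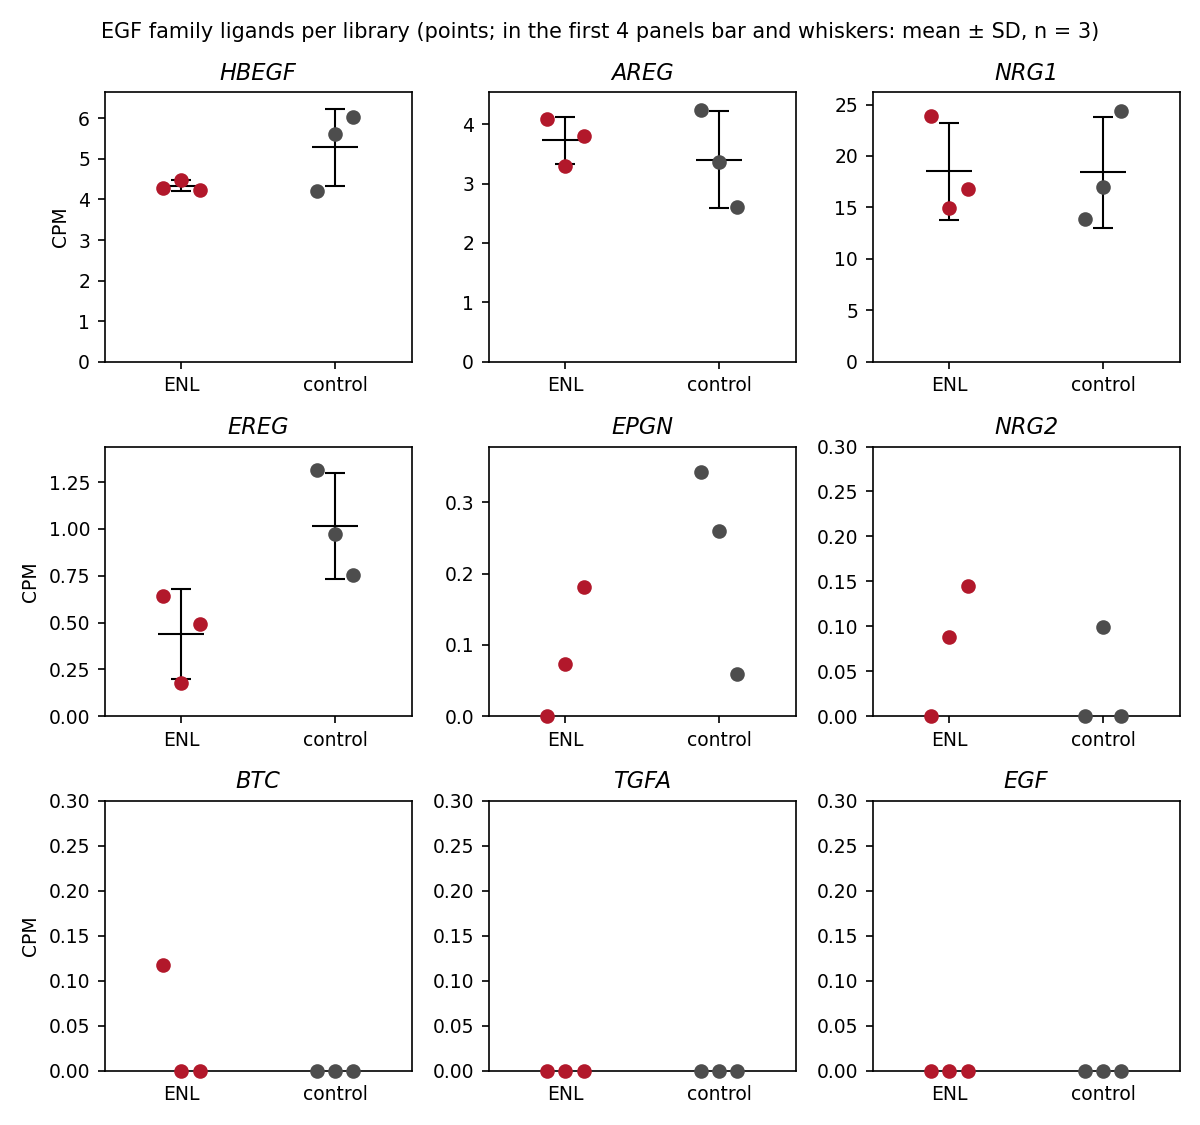
Level of each EGF family ligand in CPM (vertical axes, each from 0, own scale) in the 3 ENL and the 3 control libraries, 1 point per library. HBEGF, AREG and NRG1 overlap between the groups, the 3 ENL points of EREG lie below the 3 control points, and TGFA and EGF are at 0 throughout.

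HBEGF encodes heparin-binding EGF-like growth factor, which binds EGFR and ERBB4 (gene at chromosome 5, 140332843 to 140346631, minus strand, GENCODE 29 on GRCh38). Its level was 4.29, 4.49 and 4.24 CPM in ENL libraries 1, 2 and 3, against 4.22, 5.61 and 6.02 CPM in control libraries 1, 2 and 3. The ENL libraries lay close together, and control library 1 lay just below them while the other control libraries lay above. The log2 fold change was -0.28 ± 0.18 (SE, n = 3 per group), with a 95% interval from -0.70 to 0.14 and an adjusted p of 0.246 in edgeR's test. About 73.2 to 128 fragments stood behind these values in each library. Under scaling by library totals the unadjusted p of HBEGF in edgeR's test was 0.0278 (adjusted p = 0.0628). Without control library 1 it was 0.0407 (adjusted p = 0.105).

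AREG encodes amphiregulin, an EGFR ligand (chromosome 4, 74445134 to 74455009, plus strand). Its level was 4.09, 3.30 and 3.80 CPM in ENL libraries, against 4.24, 3.37 and 2.60 CPM in control libraries. The highest and the lowest of the 6 values were both in control libraries, so the ENL values lay inside the control range. The log2 fold change was 0.13 ± 0.22, with a 95% interval from -0.40 to 0.66 and an adjusted p of 0.669 in edgeR's test. Its sign turned negative (-0.07) when libraries were scaled by their totals alone, where the median of all genes was -0.23, and it was -0.03 without control library 3.

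EREG encodes epiregulin, a ligand of EGFR and ERBB4 (chromosome 4, 74365143 to 74388751, plus strand). Its level was 0.644, 0.176 and 0.494 CPM in ENL libraries, against 1.31, 0.975 and 0.753 CPM in control libraries. All ENL libraries were below all control libraries, and ENL library 2 was the lowest, with about 3 fragments where control library 1 had about 28.8. The log2 fold change was -1.21 ± 0.53, with a 95% interval from -2.45 to 0.04 and an adjusted p of 0.112 in edgeR's test (unadjusted p = 0.0554). The adjusted p was 0.0692 to 0.289 over the other settings, and the log2 fold change without ENL library 2 was -0.83.

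EREG was also low relative to its neighbour AREG within each ENL library, a ratio that does not depend on how libraries are scaled. The EREG count was 0.158, 0.0533 and 0.130 times the AREG count in ENL libraries, against 0.310, 0.289 and 0.290 times in control libraries. The ENL ratios were all lower than the control ratios and spread more widely. This ratio was chosen after the values were seen, and no test was made of it.

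EPGN encodes epigen, an EGFR ligand (chromosome 4, 74308473 to 74315307, plus strand). Its level was 0, 0.0734 and 0.181 CPM in ENL libraries, against 0.343, 0.259 and 0.0588 CPM in control libraries, all at or below about 7.5 fragments. The groups overlapped, and 3 fragments per library, the limit that a count of 0 allows, correspond to 0.145 to 0.176 CPM in ENL libraries and 0.137 to 0.148 CPM in control libraries. The fit gave a log2 fold change of -1.33 ± 1.14, with a 95% interval from -4.02 to 1.36 and an adjusted p of 0.391 in edgeR's test. The interval was wide, and the difference did not pass the test. The parts of low depth and of spread between libraries in that width were not tested.

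NRG1 encodes neuregulin 1, a ligand of ERBB3 and ERBB4 (chromosome 8, 31639386 to 32767959, plus strand, with 22 annotated transcripts). Its level was 23.9, 14.9 and 16.8 CPM in ENL libraries, against 13.9, 17.0 and 24.4 CPM in control libraries. The highest library of each group was nearly equal, and so were the lowest. The log2 fold change was 0.01 ± 0.26, with a 95% interval from -0.61 to 0.62 and an adjusted p of 0.986 in edgeR's test, and its sign turned under scaling by upper quartiles (-0.08) or by library totals (-0.20). It was -0.21 without ENL library 1, -0.16 without control library 1, -0.05 without control library 2 and at most 0.26, without control library 3.

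NRG1 varied more between libraries of 1 group than most genes did. Its highest value was 1.60 times its lowest in ENL libraries and 1.76 times in control libraries. The median of this ratio over the 12173 tested genes that averaged 1 CPM or more was 1.27 in ENL and 1.16 in control libraries. For AREG the ratio was 1.24 in ENL and 1.63 in control libraries, and for HBEGF 1.06 in ENL and 1.43 in control libraries. All 3 of these ligands were thus above the median gene in control libraries, whereas AREG and HBEGF were below it in ENL libraries. The genes behind the median were not matched to the ligands in level.

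The remaining 4 ligands were too low to be tested. TGFA, which encodes transforming growth factor alpha, and EGF itself were at 0 in all 6 libraries, which at 3 fragments per library allows up to 0.176 CPM. BTC, which encodes betacellulin, had 8 units (about 2 fragments, 0.117 CPM) in ENL library 1 and 0 in the other 5 libraries. NRG2, which encodes neuregulin 2, had 0, 0.0881 and 0.144 CPM in ENL libraries, against 0, 0.0987 and 0 CPM in control libraries, or at most about 3 fragments. None of the 4 exceeded the 3-fragment limit in any library, and the filter on low counts removed them from the test. Of 20 widely expressed genes, 0 were at 0 in any library, and the lowest of their values was 1302 units.

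The summed level of the 9 ligands was 33.0, 23.0 and 25.7 CPM in ENL libraries, against 24.0, 27.3 and 33.8 CPM in control libraries. NRG1, HBEGF and AREG together made up 96.8% to 98.5% of it in ENL libraries and 93.1% to 97.6% in control libraries. NRG1 alone made up 64.7% to 72.3% in ENL libraries and 57.8% to 72.1% in control libraries. The 7 ligands of EGFR summed to 9.14, 8.04 and 8.72 CPM in ENL libraries, against 10.1, 10.2 and 9.43 CPM in control libraries. The total of all 9 overlapped between the groups. The total of the EGFR ligands did not, but the gap was narrow, from 9.14 CPM in ENL library 1 to 9.43 CPM in control library 3. Among single genes, 54.0% of all tested genes did not overlap either. Neither sum was tested.

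Levels of different genes were compared per kilobase of the longest annotated coding transcript, which need not be the one expressed. NRG1 had 3.12 ± 0.795 CPM per kb (SD, n = 3) in ENL and 3.11 ± 0.911 in control cells, and AREG 3.01 ± 0.320 in ENL and 2.75 ± 0.663 in control cells. NRG1 and AREG thus did not differ beyond their spread on this scale. HBEGF followed with 1.82 ± 0.0561 CPM per kb in ENL and 2.21 ± 0.396 in control cells. Its ENL values were all below those of AREG, whereas in control cells the ranges of HBEGF and AREG overlapped. EREG had 0.0948 ± 0.0517 CPM per kb in ENL and 0.220 ± 0.0613 in control cells, and EPGN 0.0708 ± 0.0759 in ENL and 0.184 ± 0.122 in control cells, and these ligands also overlapped. The receptors ERBB2 and EGFR stood above all ligands, with ERBB2 at 13.5 ± 0.234 CPM per kb in ENL and 16.4 ± 0.754 in control cells, and EGFR at 9.0 ± 1.45 in ENL and 7.88 ± 0.464 in control cells, whereas ERBB3 stood below NRG1, AREG and HBEGF (0.101 ± 0.0784 in ENL and 0.194 ± 0.0497 in control cells).

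**Figure D2:**
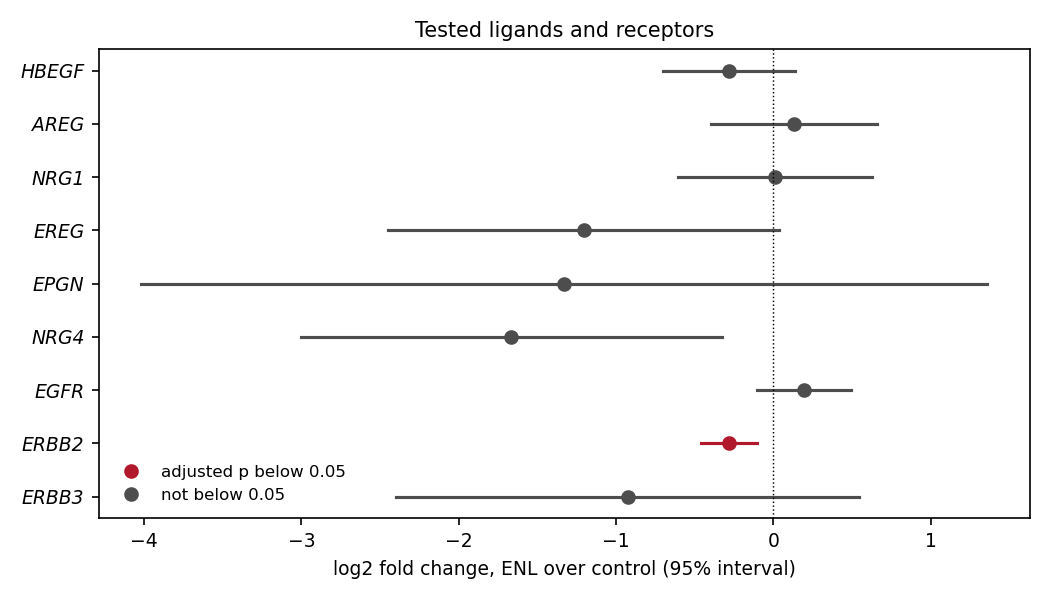
Log2 fold change of ENL over control (horizontal axis) with its 95% interval from edgeR's fit, for the 5 tested ligands, NRG4 and the 3 tested receptors. The intervals of all 5 ligands include 0, and ERBB2 (red) is the only gene shown with an adjusted p below 0.05.

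Of the neuregulins outside the rule, NRG3 stayed at or below 9 units in every library. NRG4, an ERBB4 ligand, had 0.469, 0.587 and 0.144 CPM in ENL libraries, against 1.02, 1.80 and 0.976 CPM in control libraries, and it was chosen after its values were seen. All ENL libraries were below all control libraries, with a log2 fold change of -1.67 ± 0.56 and an adjusted p of 0.0545 in edgeR's test. It passed 0.05 in 7 of 15 other settings (adjusted p = 0.0185 to 0.172 over the 15). Exons of NRG4 share 1917 bases with FBXO22 on the opposite strand, so reads of these genes may not be told apart.

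Among the receptors, 1 of 3 tested members was called, against 38.4% of all tested genes. ERBB2, the receptor with no ligand of its own, had 64.6, 65.5 and 63.3 CPM in ENL libraries, against 74.3, 79.6 and 81.2 CPM in control libraries. It fell in ENL, with a log2 fold change of -0.28 ± 0.08 and an adjusted p of 0.0247 in edgeR's test, but the call was lost without ENL library 1 (adjusted p = 0.0687), control library 2 (0.0904) or control library 3 (0.103). Exons of ERBB2 overlap those of MIEN1 and PGAP3 on the opposite strand by 571 and 194 bases. EGFR had 81.7, 78.7 and 105 CPM in ENL libraries, against 79.4, 72.1 and 80.5 CPM in control libraries, where ENL library 3 was the highest of the 6. Its log2 fold change was 0.19 ± 0.13 (adjusted p = 0.264 in edgeR's test), it was 0.07 without ENL library 3 and -0.01 under scaling by library totals, and EGFR-AS1 overlaps 186 of its exon bases on the opposite strand. ERBB3 had 0.176, 0.528 and 1.10 CPM in ENL libraries, against 0.835, 1.42 and 1.19 CPM in control libraries (log2 fold change -0.93 ± 0.62, adjusted p = 0.279). This value was -0.49 without ENL library 1 and -1.69 without ENL library 3 (adjusted p = 0.0662). ERBB4 was at 0 in all 6.

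Other lists of the pathway are given beside the 38.4% of all tested genes that were called. All tested genes were not matched to the lists in level. Of 21 tested sheddases and their regulators 3 rose and 5 fell, or 38.1% against 38.4% of all tested genes, with a median log2 fold change of -0.09. RHBDF1, which encodes an inactive rhomboid that escorts the sheddase ADAM17, rose to 51.5 ± 5.07 CPM in ENL, against 23.6 ± 1.0 in control cells (log2 fold change 1.12 ± 0.10, adjusted p = 0.000367 in edgeR's test). TIMP3, an inhibitor of ADAM17, rose as well (1.22 ± 0.12), and ADAM12, which can cleave the HBEGF precursor, fell (-1.33 ± 0.11). ADAM17 itself was at -0.09 ± 0.12 (adjusted p = 0.597 in edgeR's test), with a neighbour, IAH1, that shares 1323 exon bases on the opposite strand. The count of 8 was 5 without ENL library 1, control library 2 or control library 3.

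Of 12 tested surface partners 1 rose and 3 fell (33.3% against 38.4% of all tested genes, median -0.07), among them the heparan sulphate proteoglycan gene GPC1 (-0.63 ± 0.11, adjusted p = 0.00453 in edgeR's test), while CD9, whose product associates with the HBEGF precursor, was at 0.15 ± 0.10 (adjusted p = 0.266). This count was 2 without ENL library 1 or control library 3. Of 20 receptor adaptors 6 rose and 7 fell (65% against 38.4%, median -0.20), with PIK3R1 at 1.63 ± 0.18 and GRB2 at -0.55 ± 0.07. The 13 were 8 without any 1 of the 3 control libraries. Of 21 tested genes of receptor feedback and degradation 6 rose and 5 fell (52.4% against 38.4%, median 0.18), or 7 in all without control library 3. ERRFI1, an inhibitor of the EGFR kinase, fell to 450 ± 37.1 CPM in ENL, against 957 ± 47.2 CPM in control cells (-1.09 ± 0.09, adjusted p = 0.000254 in edgeR's test), and the endosomal sorting gene STAM rose (1.80 ± 0.12).

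Of 10 genes read as output of the MAPK pathway downstream of the receptors 4 rose and 4 fell (80% against 38.4% of all tested genes, median 0.17). This count of calls was 6 without any 1 of the 3 control libraries. The phosphatase gene DUSP4 rose to 512 ± 26.9 CPM in ENL, against 107 ± 2.03 CPM in control cells (log2 fold change 2.26 ± 0.08, adjusted p = 1.36e-05 in edgeR's test). The feedback inhibitor gene SPRY4 fell to 38.3 ± 1.90 CPM in ENL, against 105 ± 4.56 CPM in control cells (-1.45 ± 0.08, adjusted p = 5.73e-05).

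**Figure D3:**
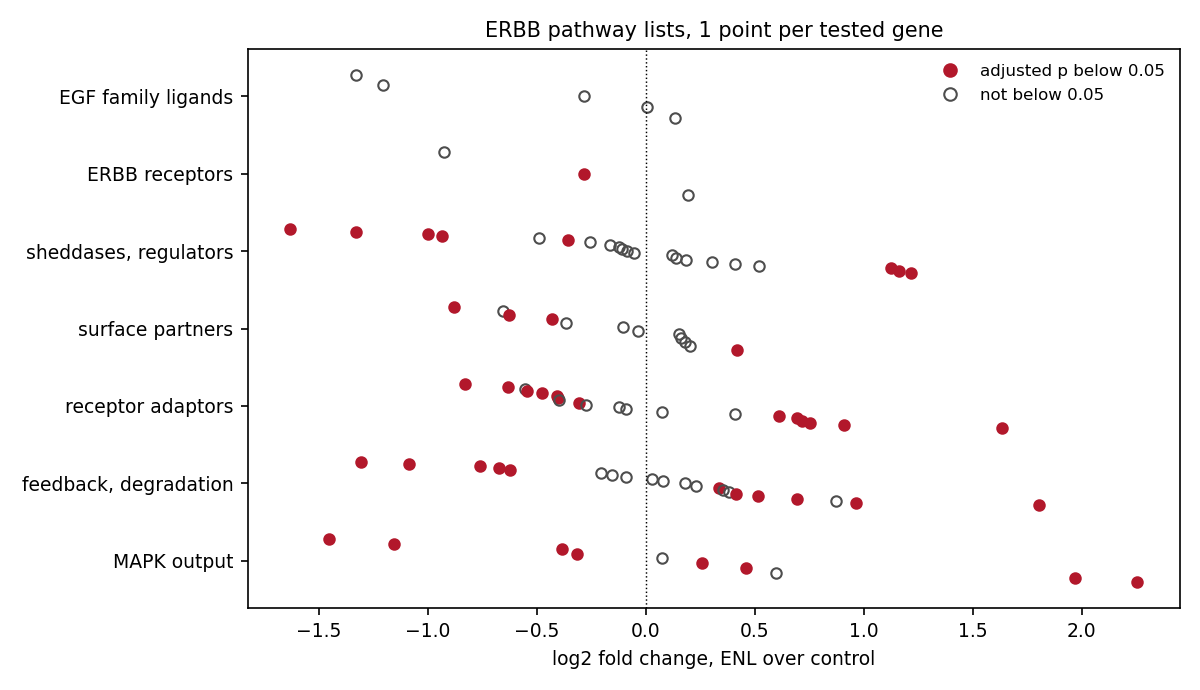
Log2 fold change of ENL over control for each tested gene (1 point per gene, filled red where the adjusted p was below 0.05) in 7 lists of the ERBB pathway. All 5 points of the ligand list are open, while filled points lie on both sides of 0 in the lists of sheddases, partners, adaptors, feedback genes and MAPK output.

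AREG, EREG, EPGN and BTC share a stretch of chromosome 4 with the CXC chemokine genes, which end 14.9 kb before MTHFD2L, itself 5.37 kb from EPGN. EPGN, EREG and AREG follow in this order on the plus strand, 49.8 and 56.4 kb apart, and BTC lies 290 kb further on the minus strand. Of 8 tested neighbours of the ligands 3 rose and 2 fell (62.5% against 38.4% of all tested genes). CXCL3 had a log2 fold change of 1.42 ± 0.09, CXCL5 of 0.79 ± 0.11 and CXCL2 of 0.62 ± 0.08, whereas CXCL1 had -0.50 ± 0.10 (adjusted p = 8.98e-05, 0.00194, 0.00154 and 0.00661 in edgeR's test). CXCL1, CXCL2 and CXCL3 are close copies of each other, so reads could be divided between them. The other fall was that of CXCL8 (-0.35 ± 0.10, adjusted p = 0.0298), whose call was lost without ENL library 2 (0.0680) or control library 1 (0.104), 2 (0.0690) or 3 (0.0679). MTHFD2L, the gene next to EPGN, was at -0.31 ± 0.16 on the log2 scale (adjusted p = 0.167).

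**Figure D4:**
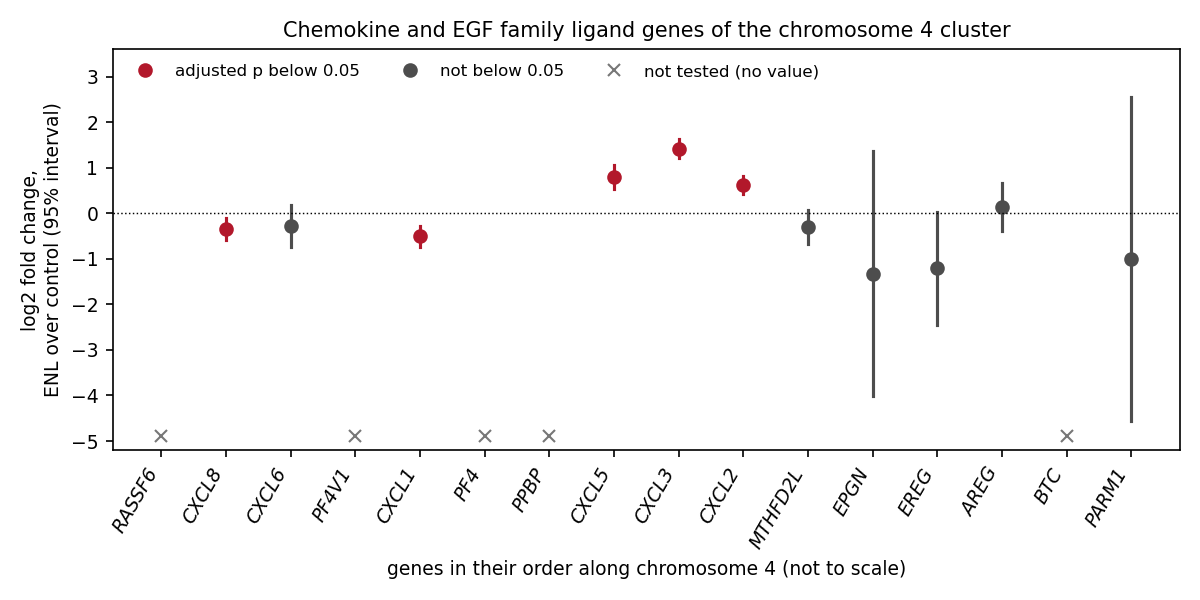
Log2 fold change of ENL over control with its 95% interval (vertical axis) for genes in their order along the chromosome 4 cluster, not to scale, with untested genes as crosses at the bottom. CXCL5, CXCL3 and CXCL2 lie above 0 and CXCL8 and CXCL1 below it, while the intervals of EPGN, EREG and AREG include 0.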

How the data were processed

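RNA sequencing of 3 ENL and 3 control libraries of BT549 was analysed. Per the submitters' processing notes the tools included STAR, StringTie, DESeq2 and FastQC and the build was hg38; versions, annotation and strand setting were not given in the sources used here. Each column of the deposited table holds an estimated count per gene in whole numbers. Of values from 4 to 43, 70.8% to 73.1% were a multiple of 4 or 1 above one, so 1 fragment was taken as about 4 units and limits for a count of 0 as 3 fragments (12 units). Many whole numbers meet this rule without such steps, and the remaining values did not meet it. Fragment numbers are therefore estimates. Limits for a count of 0 cover counting error only.

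Columns were matched to samples by title. Low genes were dropped with filterByExpr of edgeR (minimum count 10), TMM factors were computed, and groups were compared with the quasi-likelihood F test (robust, two-sided, group alone) over all genes, Benjamini-Hochberg threshold 0.05 (R 4.3.3, edgeR 4.0.16, limma 3.58.1, DESeq2 1.42.0). CPM use the same factors. Standard errors are the log2 fold change over the root of F, and 95% intervals use the test's degrees of freedom. No pair of libraries agreed within counting noise (chi-square per degree of freedom at least 19.4 in fragments). The procedure was also run on simulated counts with few changed genes and the same spread setting for every gene. Far more genes were called in these data, so that run does not give the error rate here.

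Members and gene lists were chosen with earlier results of these data known. The naming rule took all members, the receptors and up to 4 genes per direction and list with at least 1 CPM; it also asked for the genes most like each called member, of which there was none. After the values were seen, the text was limited to a few of these. All 116 symbols matched 1 coding gene in GENCODE 29 (GRCh38, the assembly hg38 names), which gave coordinates, lengths and exon overlaps of at least 100 bases. Promoters are RefSeq's. Alternatives were other scalings, tests and filters, counts divided by 4, the replicate number as a block and each library left out.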

Additional observations from a re-analysis of the deposited data

How the results depend on the processing

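In all 15 other settings the number of ligands called stayed 0, with 3 to 7 ligands tested, and the number of all genes called was 3815 to 6061 against 5404. The log2 fold changes of HBEGF (-0.49 to -0.18), EREG (-1.58 to -0.83) and EPGN (-2.52 to -0.77) kept their sign in every setting that tested them. EREG and EPGN were not tested with at least 1 CPM required in 3 libraries, and EPGN not with counts divided by 4. AREG turned to -0.073 and EGFR to -0.0077 under library totals, and AREG ranged from -0.027 to 0.32 as each library was left out. NRG1 turned to -0.079 under upper-quartile scaling, -0.20 under library totals, -0.0085 with the 1 CPM filter and -0.0022 with counts divided by 4, and ranged from -0.21 to 0.26 as each library was left out. The median of all genes was -0.11 and -0.23 under upper-quartile scaling and library totals, against -0.02, and 42.9% and 31.1% of calls were higher, against 52.2%. The turns under these scalings went with a lower median of all genes. The cause of the turns was not tested.

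The count of other neuregulins called was 1 against 0 under upper-quartile scaling, library totals, the DESeq2 Wald test, limma-voom, the 1 CPM filter, counts divided by 4 and the replicate block. As each library was left out, the calls ranged from 0 to 1 for receptors, 5 to 9 for sheddases and their regulators, 2 to 4 for surface partners, 8 to 14 for receptor adaptors and 7 to 11 for feedback and degradation genes, where fewer samples entered the fit. In the same fits they ranged from 6 to 8 for MAPK output and from 4 to 6 for the chromosome 4 neighbours. With the replicate number as a block, 4941 genes and 0 ligands were called. Whether the numbers pair the libraries was not settled. Deviations of same-numbered libraries correlated weakly, at 0.03, 0.0455 and 0.0797. ENL libraries 2 and 3 correlated best with the control library of their own number, and ENL library 1 with control library 2 (0.0322). The other pairs of unlike number ran from -0.0752 to -0.00958. Of 49 genes named by the rule or after their values were seen, 31 gave the same call and sign in every setting, 15 changed call in at least 1 and 3 changed sign in at least 1. Depth limits EREG and EPGN, whose values rest on at most about 28.8 and 7.5 fragments per library.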

Other observations

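Libraries of 1 group differed from each other in their mix of ligands. In the ENL group, library 2 had the lowest level of AREG and EREG (3.30 and 0.176 CPM) and the highest of HBEGF (4.49 CPM), but also the lowest of NRG1 (14.9 CPM). ENL library 1 had the highest level of AREG, EREG and NRG1 (4.09, 0.644 and 23.9 CPM). In the control group, library 1 had the highest level of AREG, EREG and EPGN (4.24, 1.31 and 0.343 CPM) and the lowest of HBEGF and NRG1 (4.22 and 13.9 CPM). Control library 3 had the lowest level of AREG, EREG and EPGN (2.60, 0.753 and 0.0588 CPM) and the highest of HBEGF and NRG1 (6.02 and 24.4 CPM). By rank alone, NRG1 thus lay with AREG and EREG in the ENL group and with HBEGF in the control group. The AREG count was 0.735 to 0.952 times the HBEGF count over the ENL libraries, inside the range of 0.432 to 1.01 times over the control libraries. Several of these ranks rest on few fragments, about 11, 3 and 10.2 for EREG in ENL libraries. For EPGN in control libraries they were about 7.5, 5.25 and 1.25. HBEGF differed little between ENL libraries, at about 73.2, 76.5 and 88 fragments. Whether the ranks exceed counting error was not tested. The pattern was noticed in 3 libraries per group and was not tested either.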
